A study of Mus musculus with 15 samples.

Results

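Tetraspanins are small membrane proteins, and 10 of their genes (Cd9, Cd63, Cd81, Cd82, Cd151, Tspan3, Tspan4, Tspan6, Tspan7 and Tspan31) were followed through every RNA preparation of a study of mouse neural stem cells. Members were chosen by name, as the probe sets whose platform gene symbol was one of the 10. The selection rule used names and no measured value, but the 10 names were picked with earlier results of these data known. This gave 17 probe sets of 8 genes out of 22690 probe sets on the array. No probe set with 1 gene symbol carried Cd63 or Tspan7, so both genes were not analysed here. The 691 probe sets annotated with several genes were not searched for members. Cd151 had 6 probe sets, Tspan31 had 3, Cd82 and Tspan6 had 2 each, and Cd9, Cd81, Tspan3 and Tspan4 had 1 each.

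A tetraspanin crosses the membrane 4 times and exposes a small and a large loop outside the cell. It sits beside integrins, immunoglobulin-type proteins and proteases and gathers them into tetraspanin-enriched microdomains, and several members enter the small vesicles called exosomes. In the nervous system members of the family are found on neural progenitors and glia. Their mRNAs are translated on ribosomes bound to the endoplasmic reticulum, as is usual for membrane proteins.

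The cells were primary neural stem cells from female mice, 6 weeks old and labelled C57/B16, grown as neurospheres, which are floating clusters of stem cells and their progeny. Some cultures received CD95L-T4, a trimeric form of the natural ligand of CD95 (Fas, a death receptor), for 48 h, and the control cultures did not. RNA came either from polysomes, the fraction in which several ribosomes sit on 1 mRNA, or from whole cells (total RNA). The 15 Affymetrix arrays made up 4 groups: CD95L-T4 polysomal (n = 3), control polysomal (n = 4), CD95L-T4 total (n = 4) and control total (n = 4). The sample titles call the replicates biological, but the labels do not say how cultures map to animals, so p-values measure the spread between these arrays.

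Values are deposited log2 intensities, and 1 unit is a 2-fold difference. Array medians lay between 6.83 and 6.98. Of 8 neural stem cell markers 7 were measured, and 6 of these, Sox2 and Nes among them, exceeded the array median in control total RNA. None of 6 microglia and leukocyte markers, 5 endothelial markers or 5 fibroblast markers did so. Of neuronal markers 2 of 6 did, Map2 among them, of oligodendrocyte markers 1 of 5 (Cnp) and of astrocyte markers 2 of 5, Aldoc among them. In bulk RNA fewer cells of a type and less RNA per cell cannot be told apart. The 3' signal of actin exceeded the 5' signal by 0.59 to 1.03 in polysomal and by 0.28 to 0.57 in total arrays, and the part of this in the results was not tested. Added poly-A control transcripts averaged 10.01 in CD95L-T4 polysomal replicate 2, against 8.31 and 8.45 in the other replicates of its group.

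Because translation depends in part on the first transcribed bases, 1 annotated transcription start is shown for each member described below. The first 5 transcribed bases are in capitals. An mRNA whose cap is followed by C and a run of pyrimidines (a 5' terminal oligopyrimidine start) belongs to the class whose translation is known to respond to mTOR. Sequences are from RefSeq (GRCm38.p6), 20 bases before and 20 from the start onward, 5' to 3' on the gene's strand.
Cd81, chr7:143052730-143052769, plus strand: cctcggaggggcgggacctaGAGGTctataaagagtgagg
Tspan6, chrX:133898410-133898449, minus strand: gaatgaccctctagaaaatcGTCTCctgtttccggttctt
Tspan3, chr9:56161051-56161090, minus strand: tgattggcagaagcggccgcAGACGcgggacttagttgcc
Cd9, chr6:125494741-125494780, minus strand: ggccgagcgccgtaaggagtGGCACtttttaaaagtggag
Tspan31, chr10:127070242-127070281, minus strand: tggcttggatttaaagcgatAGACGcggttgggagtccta
Tspan4, chr7:141475216-141475255, plus strand: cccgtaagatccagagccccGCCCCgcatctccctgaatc
Cd151, chr7:141467342-141467381, plus strand: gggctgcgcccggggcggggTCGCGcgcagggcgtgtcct
Cd82, chr2:93452653-93452692, minus strand: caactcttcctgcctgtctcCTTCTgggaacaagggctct
The table held 13 starts for the 8 genes, and 1 of these, the Cd82 start shown, began with C and 4 further pyrimidines (7.7%). The other 3 of the 4 Cd82 starts did not, and the files do not say which start these cells used. Cd151 and Tspan4 had 2 starts each, with 1 shown, and none of these did. Among all 32851 starts of RefSeq's table, 2.5% did so. The GC box GGGCGG, read on both strands, lay within 250 bases upstream of 6 of 13 member starts (46.2%), compared with 32.7% of all starts. The TATA motif TATAAA lay 40 to 21 bases upstream of 0 member starts, compared with 1.87% of all starts. These are counts of letters in the windows searched and not of binding sites, and a link to the array values was not tested.

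The first question was how each tetraspanin mRNA was spread between polysomes and the whole cell. Most members had lower values in polysomal RNA, with and without CD95L-T4. In CD95L-T4 cultures 13 of 17 member probe sets passed as lower and 2 as higher, and in control cultures 12 passed as lower and 2 as higher. The fit was limma over all 22626 probe sets that are not array controls, with Benjamini-Hochberg adjustment and a threshold of 0.05. Of all probe sets 24.6% were lower and 26.7% higher in CD95L-T4 cultures, and 26.3% were lower and 29.8% higher in control cultures. With each gene taken by its brightest probe set, 7 of 8 member genes were lower and Cd82 was higher in both kinds of culture. Over all genes, bright and dim, 21.8% were lower in CD95L-T4 and 23.2% in control cultures. By these probe sets the 8 member genes were all brighter than the array median. Genes above that median were called lower more often, 33.7% of them in CD95L-T4 and 36.5% in control cultures. The members' median log2 difference was -0.97 in CD95L-T4 and -0.95 in control cultures, beside 0.07 for all genes in CD95L-T4 and 0.10 in control cultures. The CD95L-T4 and control comparisons take their group means from different arrays. Their tests are not independent, because the fit takes 1 estimate of the spread from all 15 arrays.

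Scaling every array to equal medians turns the overall balance further towards higher calls. The share of higher among all calls was 52.1% in CD95L-T4 and 53.1% in control cultures as deposited, and with equal medians it was 62.1% in CD95L-T4 and 63.3% in control cultures. The median of all probe sets then was 0.13 in CD95L-T4 cultures, where it was 0.04 as deposited, and 0.15 in control cultures, where it was 0.06. The RNA fraction cannot be told apart from the extraction, a column kit for total and phenol-chloroform for polysomal RNA, or from the labelled molecule, total or polyA RNA. Each array shows a transcript relative to the RNA hybridised to it, so a lower polysomal value means a smaller share of polysomal than of total RNA.

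**Figure D1:**
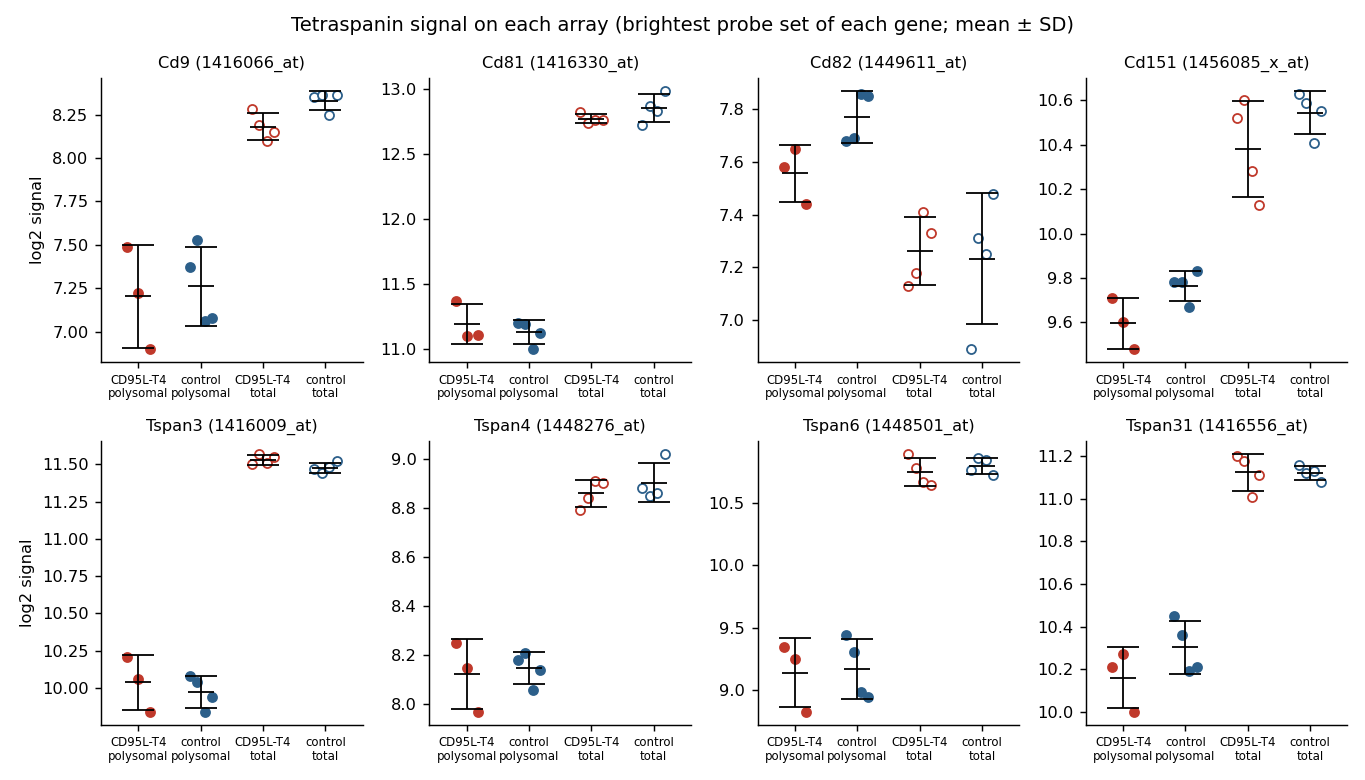
Deposited log2 intensity of the brightest probe set of each of the 8 measured tetraspanin genes in every array. Each point is 1 array, the horizontal line is the group mean, and groups run from CD95L-T4 polysomal to control total. Polysomal points lie below total points for 7 genes, and for Cd82 they lie above the total points of the same kind of culture.

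Cd81, an entry receptor of hepatitis C virus in human liver, fell about 3-fold. In CD95L-T4 cultures it read 11.37, 11.10 and 11.11 on polysomal arrays, against 12.82, 12.74, 12.76 and 12.76 on total arrays. In control cultures it read 11.20, 11.19, 11 and 11.12 on polysomal arrays, against 12.72, 12.87, 12.83 and 12.98 on total arrays. No polysomal array came near a total array in either kind of culture. The log2 difference was -1.58 ± 0.09 (SE, 2.98-fold lower, limma adjusted p = 5.1e-10) in CD95L-T4 cultures. In control cultures it was -1.72 ± 0.08 (SE, 3.30-fold lower, limma adjusted p = 4.53e-11).

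Tspan6, which in human cells has been described as a brake on RIG-I-like antiviral signalling, fell by about the same amount. Its brighter probe set, 1448501_at, read 9.35, 9.25 and 8.83 on CD95L-T4 polysomal arrays, against 10.89, 10.78, 10.67 and 10.64 on CD95L-T4 total arrays. It read 9.44, 9.31, 8.99 and 8.95 on control polysomal arrays, against 10.76, 10.86, 10.84 and 10.72 on control total arrays. The groups were far apart, although the polysomal arrays spread more widely than the total arrays. The fall was -1.60 ± 0.13 in CD95L-T4 cultures (SE, 3.03-fold, limma adjusted p = 1.8e-08) and -1.62 ± 0.12 in control cultures (SE, 3.08-fold, limma adjusted p = 3.38e-09). The other Tspan6 probe set, 1416872_at, was also lower, by 2.58-fold in CD95L-T4 and 2.45-fold in control cultures.

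Tspan3, known as a partner of beta-1 integrin and of the tight junction protein claudin-11 in oligodendrocytes, fell by a similar amount. In CD95L-T4 cultures it read 10.21, 10.06 and 9.84 in polysomal RNA, against 11.50, 11.57, 11.51 and 11.55 in total RNA. In control cultures it read 10.08, 10.04, 9.84 and 9.94 in polysomal RNA, against 11.47, 11.44, 11.48 and 11.52 in total RNA. Every polysomal array was lower than every total array. The log2 difference was -1.50 ± 0.09 in CD95L-T4 (SE, 2.82-fold lower, limma adjusted p = 7.04e-10) and -1.50 ± 0.08 in control cultures (SE, 2.83-fold lower, limma adjusted p = 1.38e-10).

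Cd9, a regulator of cell fusion and a common exosome marker, fell by about 1 log2 unit. It read 7.49, 7.22 and 6.90 on CD95L-T4 polysomal arrays, against 8.28, 8.19, 8.10 and 8.15 on CD95L-T4 total arrays. It read 7.37, 7.53, 7.06 and 7.08 on control polysomal arrays, against 8.35, 8.36, 8.25 and 8.36 on control total arrays. The groups did not overlap, and the polysomal values again varied more than the total values. The difference was -0.98 ± 0.13 in CD95L-T4 (SE, 1.97-fold lower, limma adjusted p = 3.73e-06) and -1.07 ± 0.12 in control cultures (SE, 2.10-fold lower, limma adjusted p = 4.02e-07).

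Tspan31, first described as sarcoma amplified sequence because human sarcomas gain copies of it together with its neighbour CDK4, fell on both of its bright probe sets. The brighter, 1416556_at, read 10.21, 10.27 and 10 on CD95L-T4 polysomal arrays, against 11.20, 11.18, 11.01 and 11.11 on CD95L-T4 total arrays. It read 10.45, 10.36, 10.19 and 10.21 on control polysomal arrays, against 11.16, 11.12, 11.13 and 11.08 on control total arrays. The polysomal and total values stood apart in both kinds of culture. The fall was 1.95-fold in CD95L-T4 (limma adjusted p = 5.18e-08) and 1.77-fold in control cultures (limma adjusted p = 9.02e-08). On 1430029_a_at it was 2.03-fold in CD95L-T4 and 1.72-fold in control cultures. The dim probe set 1455853_x_at, among the dimmest 25% of the array, went the other way by 0.31 ± 0.10 in CD95L-T4 (SE, limma adjusted p = 0.0179) and 0.27 ± 0.10 in control cultures (SE, adjusted p = 0.0228). The first did not pass without CD95L-T4 polysomal replicate 2 (adjusted p = 0.0915), and the second not without control total replicate 4 (adjusted p = 0.0826). Probe sets ending in _x_at can bind related transcripts.

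Tspan4, a protein needed for migrasomes, the vesicles that moving cells leave on their retraction fibres, fell less. In CD95L-T4 cultures it read 8.25, 8.15 and 7.97 in polysomal RNA, against 8.79, 8.84, 8.91 and 8.90 in total RNA. In control cultures it read 8.18, 8.21, 8.06 and 8.14 in polysomal RNA, against 8.88, 8.85, 8.86 and 9.02 in total RNA. The groups did not overlap. The fall was -0.74 ± 0.08 in CD95L-T4 (SE, 1.67-fold, limma adjusted p = 4.52e-07) and -0.76 ± 0.07 in control cultures (SE, 1.69-fold, limma adjusted p = 9.49e-08).

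Cd151, which binds the laminin receptors built on integrins alpha-3 and alpha-6, fell on its 4 brighter probe sets. The brightest, 1456085_x_at, read 9.71, 9.60 and 9.48 on CD95L-T4 polysomal arrays, against 10.52, 10.60, 10.28 and 10.13 on CD95L-T4 total arrays. It read 9.78, 9.78, 9.67 and 9.83 on control polysomal arrays, against 10.63, 10.59, 10.41 and 10.55 on control total arrays. Polysomal and total arrays were separate, with CD95L-T4 total replicate 4 the lowest of the total arrays. The fall was -0.79 ± 0.10 in CD95L-T4 (SE, 1.72-fold, limma adjusted p = 4.64e-06) and -0.78 ± 0.10 in control cultures (SE, 1.72-fold, limma adjusted p = 1.68e-06). The probe sets 1437670_x_at, 1424093_x_at and 1451232_at differed by -0.77, -0.94 and -0.89 in CD95L-T4 and by -0.86, -0.84 and -0.83 in control cultures.

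The remaining Cd151 probe sets were dimmer than the array median and did not read alike. On 1427525_at the difference was -0.58 ± 0.17 in CD95L-T4 cultures, where the groups overlapped (SE, limma adjusted p = 0.00687, and 0.0646 without CD95L-T4 polysomal replicate 1), and -0.37 ± 0.15 in control cultures (limma adjusted p = 0.0504). On 1420921_at it was 0.16 in CD95L-T4 (limma adjusted p = 0.244) and 0.24 in control cultures (adjusted p = 0.0526), and neither passed.

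Cd82, also called Kai1 and known as a suppressor of metastasis, was the member gene that rose. Its brighter probe set, 1449611_at, read 7.58, 7.65 and 7.44 on CD95L-T4 polysomal arrays, against 7.13, 7.18, 7.41 and 7.33 on CD95L-T4 total arrays. It read 7.68, 7.69, 7.86 and 7.85 on control polysomal arrays, against 6.89, 7.31, 7.25 and 7.48 on control total arrays. Within each kind of culture every polysomal array was higher than every total array, in CD95L-T4 cultures by as little as 7.44 against 7.41. CD95L-T4 polysomal replicate 3, at 7.44, was lower than control total replicate 4, at 7.48. The rise was 0.29 ± 0.12 in CD95L-T4 (SE, 1.23-fold, limma adjusted p = 0.0425) and 0.54 ± 0.11 in control cultures (SE, 1.45-fold, limma adjusted p = 0.000343). The rise in CD95L-T4 cultures passed under 17 of 24 alternative settings. It did not pass without CD95L-T4 total replicate 1 or 2, CD95L-T4 polysomal replicate 1 or 2, or control total replicate 3, each left out alone (limma adjusted p = 0.0521 to 0.138). The rises with and without CD95L-T4 differed by -0.24 ± 0.16 (SE), which did not pass (limma adjusted p = 0.897). The second Cd82 probe set, 1416401_at, lay among the dimmest 25% and differed by -0.21 ± 0.15 in CD95L-T4 (SE, limma adjusted p = 0.272) and 0.01 ± 0.14 in control cultures (SE, adjusted p = 0.979), neither past the threshold.

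**Figure D2:**
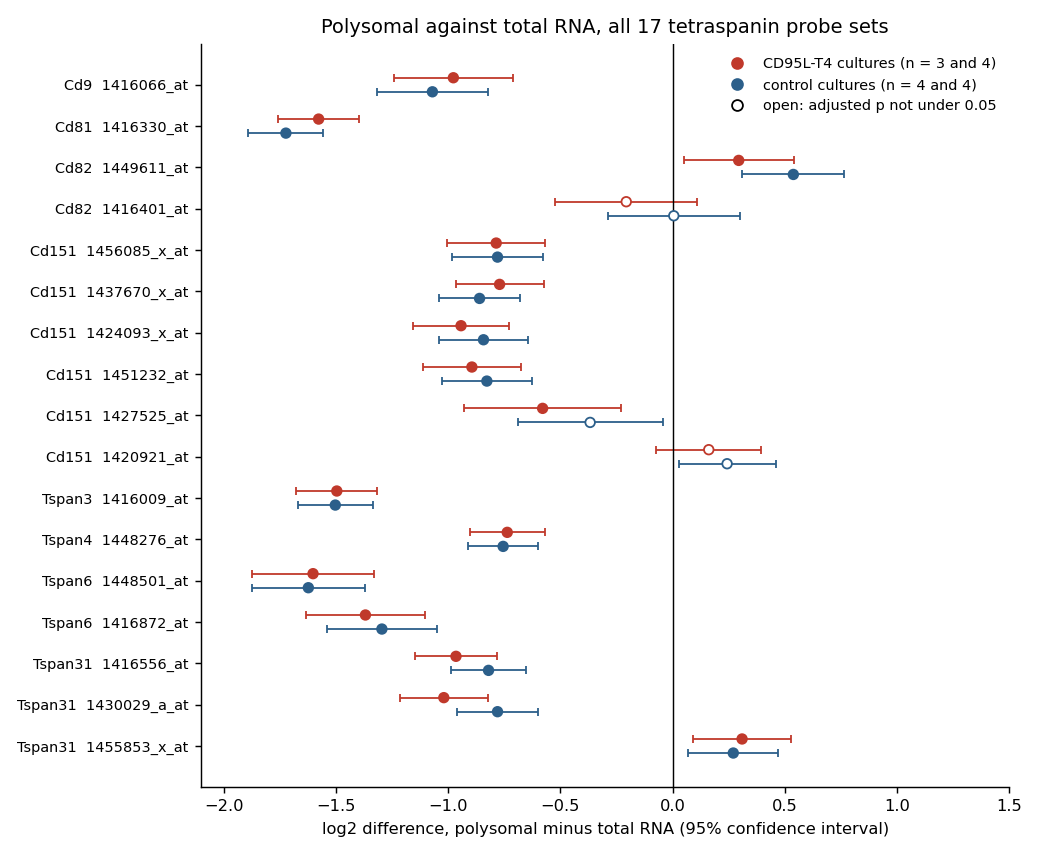
Log2 difference of polysomal over total RNA for the 17 tetraspanin probe sets, with 95% intervals from limma, in CD95L-T4 and in control cultures. Values below 0 are lower in polysomal RNA. Cd81, Tspan6 and Tspan3 lie farthest down, at -1.37 to -1.60 in CD95L-T4 cultures, and Cd82 1449611_at lies above 0 in both.

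By their brightest probe sets the members thus spread over a range, with Cd81, Tspan6 and Tspan3 lowest, at -1.50 to -1.60 in CD95L-T4 and -1.50 to -1.72 in control cultures. Cd9 came next at -0.98 in CD95L-T4 and -1.07 in control cultures, and Cd82 lay above 0. Tspan31 was near Cd9 in CD95L-T4 cultures, at -0.97, but near Cd151 and Tspan4 in control cultures, at -0.82. Cd81 and Tspan6 in CD95L-T4 cultures differed by less than their errors, as did Cd151 and Tspan4 in both kinds of culture. The steps between Tspan3 and Cd9 and between Tspan4 and Cd82 were larger than the errors. A fall of at least 1 log2 unit with a passed test was seen in 5 of 17 member probe sets in CD95L-T4 and in 5 in control cultures, beside 5.82% of all probe sets in CD95L-T4 and 6.37% in control cultures. Polysomal and total groups did not overlap in 14 member probe sets in each kind of culture, 12 lower and 2 higher with CD95L-T4, and 13 lower and 1 higher in controls. Of all probe sets 22.8% were lower and 24.9% higher without overlap in CD95L-T4 cultures, and 26% were lower and 28.6% higher in control cultures. All 13 member probe sets brighter than the array median passed in both kinds of culture, 12 as lower and Cd82 1449611_at as higher. These 13 came from 8 genes, so several of them measured the same gene. Passing was common among bright genes. By their brightest probe sets, 33.7% of all genes above that median were lower and 40.03% higher in CD95L-T4 cultures. In control cultures 36.5% were lower and 39.94% higher.

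**Figure D3:**
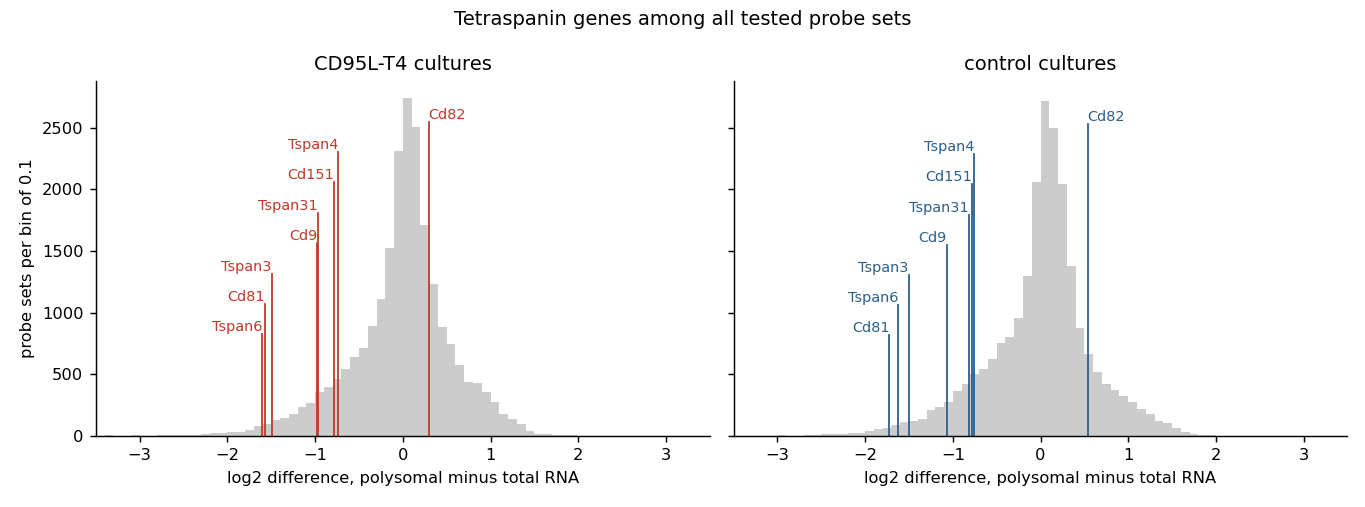
Distribution of the polysomal over total log2 difference over all tested probe sets, in CD95L-T4 and in control cultures. The brightest probe set of each of the 8 measured tetraspanin genes is marked. The medians of all probe sets are 0.04 in CD95L-T4 and 0.06 in control cultures, and most tetraspanin marks lie to the left of 0.

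Single arrays held the lowest or the highest value of their group for several members. How often these arrays were lowest or highest over all probe sets was not counted. CD95L-T4 polysomal replicate 3 held the lowest value of its group for 7 of 8 member genes by their brightest probe sets, and replicate 1 held the highest for 6. Replicate 3 was also the array with the largest actin 3' over 5' signal, 1.03 against 0.59 and 0.68 in its group. In the control polysomal group replicate 3 was lowest for 6 of 8 genes, with an actin value of 0.77 in a group range of 0.74 to 0.81. A link between the actin values and the member values was not tested. Leaving out CD95L-T4 polysomal replicate 3 left 13 member probe sets lower and 2 higher.

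Other genes of the membrane web were taken from written lists, of which the first 6 measured genes are named. Of 21 further tetraspanins, 18 were measured, and 4 were lower and 3 higher in CD95L-T4 cultures, and 4 lower and 5 higher in control cultures. Their median was 0.01 in CD95L-T4 and 0.08 in control cultures, close to that of all genes. Tspan5 and Tspan9 were lower in both, at -0.64 and -0.84 in CD95L-T4 and -0.60 and -0.85 in control cultures. Tspan1, Tspan2, Tspan8 and Tspan10 differed by -0.20, 0.13, -0.09 and 0.16 in CD95L-T4 cultures, where none passed, and by 0.13, -0.14, 0.05 and 0.27 in control cultures, where Tspan10 did. Of 3 genes named after their values were seen, Tspan13 and Tspan14 were lower at -0.98 and -0.68 in CD95L-T4 and -1.01 and -0.64 in control cultures, and Tspan17 was higher at 0.87 in CD95L-T4 and 0.88 in control cultures. Of the 6 such genes brighter than the array median, 4 were lower and 0 higher in each kind of culture, and of the 12 dimmer ones 0 were lower. Of all genes above the median 33.7% were lower in CD95L-T4 and 36.5% in control cultures, and of all genes below it 7.92% in CD95L-T4 and 7.65% in control cultures. The 8 member genes were all above it by their brightest probe sets.

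The lateral partners of tetraspanins, integrins, immunoglobulin-type proteins and sheddases, mostly fell too. Of 16 genes, all measured, 11 were lower and 2 higher in CD95L-T4 cultures, and 11 lower and 4 higher in controls, with medians of -1.13 in CD95L-T4 and -1.09 in control cultures. Itga6 and Itgb1, chains of a laminin receptor, differed by -1.71 and -2.42 in CD95L-T4 and by -1.77 and -2.55 in control cultures. Igsf8, a direct partner of Cd9 and Cd81, differed by -1.045 in CD95L-T4 and -0.998 in control cultures. Adam10, a sheddase that tetraspanins guide to the surface, differed by -1.44 in CD95L-T4 and -1.54 in control cultures. Itga3, the other laminin receptor chain bound by Cd151, and Ptgfrn, another direct partner of Cd9 and Cd81, lay above 0, at 0.12 and 0.35 in CD95L-T4 and 0.22 and 0.28 in control cultures. Itga3 and Ptgfrn were among the 5 partners dimmer than the array median, of which 0 were lower in either kind of culture. All 11 brighter partners were lower in both kinds of culture. Of all genes above the median 33.7% were lower in CD95L-T4 and 36.5% in control cultures.

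Cytosolic and membrane factors of exosomes and multivesicular bodies were divided. Of 18 genes 17 were measured, and 6 were lower and 5 higher in CD95L-T4 cultures, and 7 lower and 1 higher in controls, with medians of -0.13 in CD95L-T4 and -0.08 in control cultures. Among the 14 brighter than the array median, 6 (42.9%) were lower in CD95L-T4 and 7 (50%) in control cultures. The shares of all genes above that median were near these, 33.7% in CD95L-T4 and 36.5% in control cultures. Pdcd6ip (Alix) and its partner syntenin (Sdcbp) differed by -0.50 and -0.29 in CD95L-T4 and by -0.53 and -0.50 in control cultures. The syndecans Sdc1 and Sdc4 differed by -1.18 and -0.56 in CD95L-T4 and by -1.18 and -0.31 in control cultures. Tsg101 and Hgs, cytosolic sorting factors of the ESCRT machinery, were at 0.07 and 0.29 in CD95L-T4 and -0.08 and 0.31 in control cultures.

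Other proteins that cross the membrane 4 times but are no tetraspanins also held members that fell. Of 23 such genes 18 were measured, and 8 were lower and 1 higher in CD95L-T4 cultures, and 8 lower and 2 higher in controls, with medians of -0.23 in CD95L-T4 and -0.16 in control cultures. The proteolipid relatives Gpm6a and Gpm6b differed by -1.48 and -1.21 in CD95L-T4 and by -1.50 and -1.32 in control cultures. The myelin protein gene Pmp22 and its relative Emp1 differed by -0.75 and -0.94 in CD95L-T4 and by -0.76 and -1 in control cultures. Emp2 and Emp3 differed by -0.26 and -0.16 in CD95L-T4 and by -0.02 and 0.03 in control cultures. Of the 9 genes of this list brighter than the array median, 8 were lower in each kind of culture. The share of all genes above that median was 33.7% in CD95L-T4 and 36.5% in control cultures. The medians of these 9 were -0.94 in CD95L-T4 and -1 in control cultures, beside -0.97 and -0.95 for the tetraspanin members. Of the 9 dimmer genes 0 were lower.

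**Figure D4:**
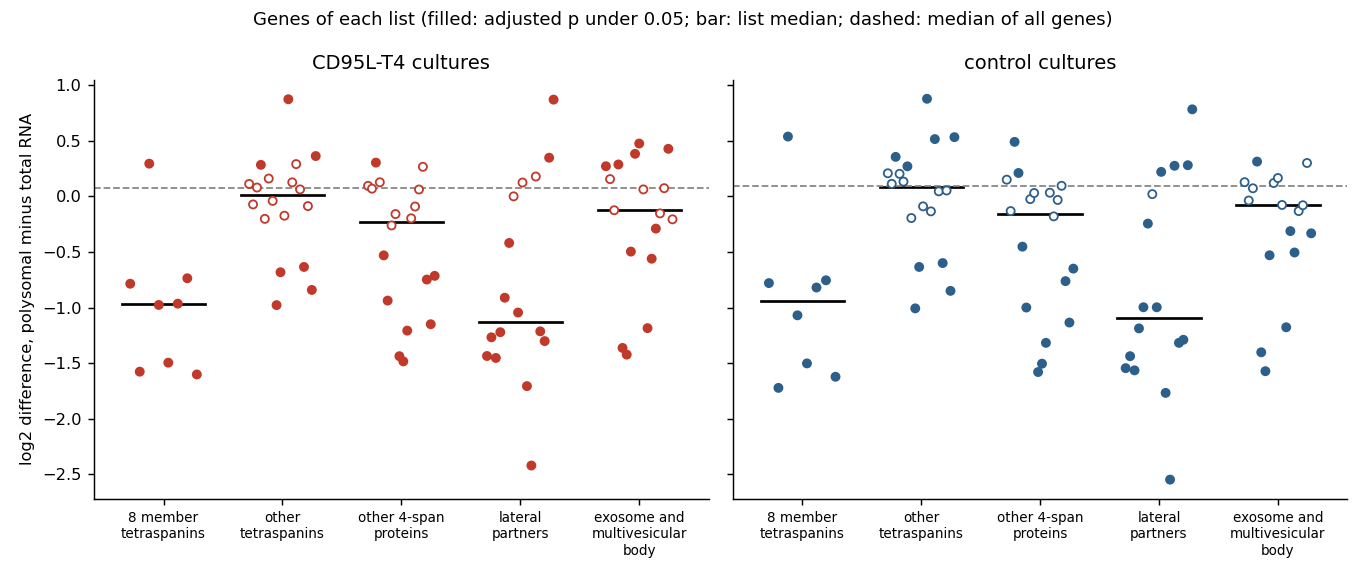
Polysomal over total log2 difference of each measured gene by its brightest probe set, for the tetraspanin members and 4 further gene lists, in CD95L-T4 and in control cultures. Each point is 1 gene and the line is the list's median, which is -0.97 in CD95L-T4 and -0.95 in control cultures for the members, and -1.13 in CD95L-T4 and -1.09 in control cultures for the lateral partners.

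The second question was whether CD95L-T4 changed tetraspanin mRNAs, and no member passed the test in either RNA fraction. In total RNA 0 of 17 member probe sets passed limma's adjusted threshold and 0 had an unadjusted p under 0.05, and over the whole array 0 passed (0%) and 846 (3.74%) had such an unadjusted p. In polysomal RNA 0 members passed and 0 had an unadjusted p under 0.05, beside 0 (0%) and 2184 (9.65%) of all probe sets. For the CD95L-T4 effect in polysomal minus that in total RNA the counts were 0 and 0 for members, beside 0 (0%) and 992 (4.38%).

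The differences were small in size as well. Member differences lay between -0.16 and 0.22 in total and between -0.21 and 0.11 in polysomal RNA. The 95% intervals of all 17 probe sets stayed within 1.5-fold in both, with outermost bounds of 1.46-fold in total and 1.37-fold in polysomal RNA. For the effect in polysomal minus that in total RNA, differences lay between -0.24 and 0.15. There 15 of 17 intervals stayed within 1.5-fold and the outermost bound was 1.61-fold.

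**Figure D5:**
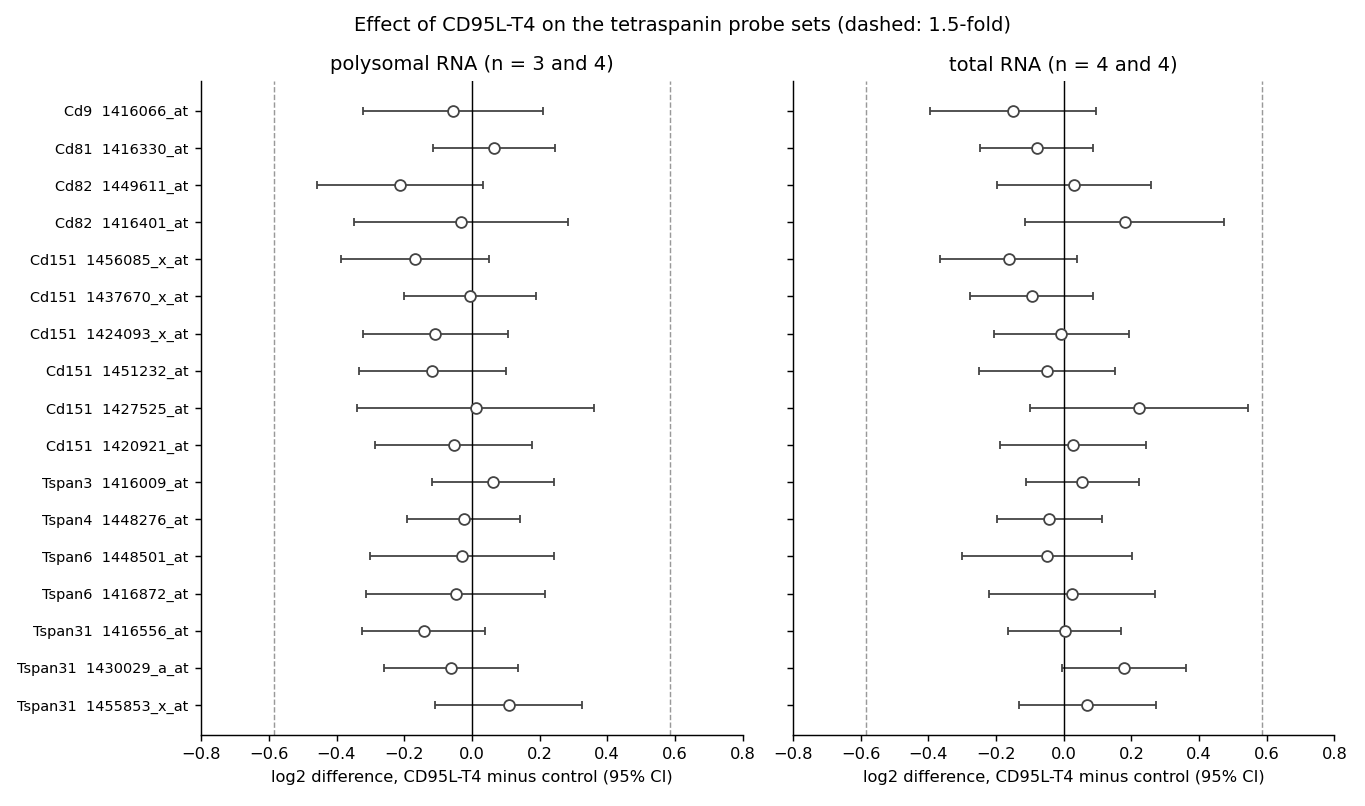
Log2 difference of CD95L-T4 over control for the 17 tetraspanin probe sets in polysomal and in total RNA, with 95% intervals from limma. All intervals stay within 1.5-fold either way, and none of the 17 passed the adjusted threshold in either fraction.

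Cd81 and Cd9 are given as examples. Cd81 averaged 11.19 ± 0.15 (SD, n = 3) on CD95L-T4 polysomal arrays and 11.13 ± 0.09 (SD, n = 4) on control polysomal arrays. In total RNA it averaged 12.77 ± 0.03 with CD95L-T4 and 12.85 ± 0.11 in controls (SD, n = 4 each). The groups overlapped in both fractions. Cd9 averaged 7.20 ± 0.30 with CD95L-T4 and 7.26 ± 0.23 in controls in polysomal RNA, and 8.18 ± 0.08 with CD95L-T4 and 8.33 ± 0.05 in controls in total RNA (SD).

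The smallest p values among members belonged to Tspan31 and Cd82. Tspan31 1430029_a_at read 10.63, 10.58, 10.88 and 10.88 on CD95L-T4 total arrays, against 10.64, 10.53, 10.57 and 10.52 on control total arrays. Replicates 3 and 4 with CD95L-T4 were high and the other two lay among the controls, and the difference was 0.18 ± 0.09 (SE, unadjusted p = 0.0558, limma adjusted p = 0.997). For the same probe set the effect in polysomal minus that in total RNA was -0.24 ± 0.13 (SE, unadjusted p = 0.0774, limma adjusted p = 0.897). In polysomal RNA Cd82 1449611_at, whose values are given above, was lower on all 3 CD95L-T4 arrays than on all 4 control arrays, by -0.21 ± 0.12 (SE, unadjusted p = 0.0835, limma adjusted p = 0.557). It was the only member probe set without overlap between CD95L-T4 and control arrays, 1 of 17 in polysomal RNA, where 5.42% of all probe sets did not overlap. In total RNA the count was 0 of 17, beside 2.52% of all probe sets.

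The number of calls in polysomal RNA changed when CD95L-T4 polysomal replicate 2, the array with high poly-A controls, was left out. A link between these controls and the calls was not tested, and the group had only 3 arrays to begin with. Without that replicate 1386 probe sets (6.13%) passed in polysomal RNA, and 0 of them were member probe sets. The smallest member p there was that of Tspan31 1416556_at, lower by -0.20 (unadjusted p = 0.0467, limma adjusted p = 0.223). Without that array the effect of CD95L-T4 on Tspan31 1430029_a_at in polysomal minus total RNA was -0.31 (unadjusted p = 0.0258, limma adjusted p = 0.25).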

How the data were processed

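The deposited table holds log2 intensities of Affymetrix probe sets that the authors normalised between arrays and rounded to 2 decimals. The normalisation method is not given in the sources used here, and the low spread of array medians is a property of the deposited values. Arrays carry no read depth, so their number limits the precision. The 64 control probe sets were left out and 22626 were tested. Of these, 20380 had 1 gene symbol in the platform annotation, 691 had several and 1555 had none. Names were updated through gene identifiers where the reference table (GRCm38.p6) held them (12369 of 12393).

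Groups were read from the sample titles. Values were fitted in limma 3.58.1 (R 4.3.3) as 4 group means from the 15 arrays, with variances moderated by empirical Bayes. Tests were two-sided, with Benjamini-Hochberg adjustment over all tested probe sets. A gene was represented by its brightest probe set over all arrays. Every member was named, and of each other list the first 6 measured genes in written order. Tspan13, Tspan14 and Tspan17 were named in addition, after their values were seen. The member names and the lists were chosen with earlier results of these data known. Steps were tested on simulated data. Alternatives covered scaling, dim probe sets, variance, weights, a replicate block, gene means and leaving out each array.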

Additional observations from a re-analysis of the deposited data

Results flagged for a closer look

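The 3 values listed here stood apart from the others of their group by Dixon's gap test at its 95% limit, out of 51 groups of 4 arrays tested, and chance alone gives about 1 in 20. The Cd151 probe set 1424093_x_at read 9.41 on CD95L-T4 total replicate 2, whereas the others of that group lay between 9.27 and 9.29. The Cd151 probe set 1427525_at read 6.41 on control total replicate 2, whereas the others lay at 6.66 to 6.67. Cd9 read 8.25 on control total replicate 3, whereas the others lay at 8.35 to 8.36.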

How the results depend on the processing

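Under each of 24 alternatives the 12 bright probe sets outside Cd82 stayed lower in both fraction comparisons, with adjusted p of at most 0.000315 in CD95L-T4 and 4.45e-05 in control cultures (limma). The count of member probe sets called higher, 2 in both, depended on dim or weakly called probe sets. In CD95L-T4 cultures it was 1 with quantile scaling within a fraction, 1 without the dimmest 25% or 50%, and 0 with array weights. Counting only falls of at least 1 log2 unit left 5 lower in each. In control cultures the count higher was 1 with quantile scaling over all arrays and 1 without the dimmest 50%. Some settings went the other way, as Cd151 1420921_at passed as higher in control cultures in 8 of 23 settings. Equal medians was 1 of these (limma adjusted p = 0.00755). Leaving out each array in turn gave 1 to 2 in CD95L-T4 and 1 to 3 in control cultures, and 12 to 13 called lower in both. In CD95L-T4 cultures Cd82 1449611_at failed without CD95L-T4 polysomal replicate 2 (0.25, adjusted p = 0.138) and under 6 other settings. With a gene's probe sets averaged, Cd82 differed by 0.04 (adjusted p = 0.789) in CD95L-T4 and 0.27 (adjusted p = 0.0407) in control cultures, and the cause was not tested. Cd151 1427525_at in control cultures passed in 12 of 23 settings. With a replicate block 13 members were lower and 2 higher in both comparisons, and that probe set passed in control cultures (adjusted p = 0.0243). For same-numbered arrays the deviations from the group means were correlated over all probe sets. These correlations ranged from -0.234 to 0.219, with 7 of 21 pairs above 0.1. Of these, 4 were all pairs of CD95L-T4 total with control polysomal (0.139 to 0.219). These groups are not compared directly here, but both enter the difference between fractions. In no direct comparison of groups made here did every pair exceed 0.1, so the numbers were not taken to pair arrays. For CD95L-T4 against control, no alternative called a member; over all probe sets, leaving out arrays gave 0 to 1386 calls in polysomal RNA and 0 to 2 for the difference between fractions. Counting each uncalled member probe set under each setting as 1 value, the sign changed in 20 of 419 values in total RNA. It changed in 25 of 419 in polysomal RNA and in 45 of 402 for the difference between fractions. Fitting the compared groups alone was not run for the difference between fractions, where all groups enter.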
